A study of Homo sapiens with 12 samples.

Results

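hsa-miR-155, hsa-miR-146a and hsa-miR-146b-5p, written here without the species prefix, are microRNAs whose genes are switched on by NF-kB, the transcription factor of inflammatory signalling. They were chosen by name and make up 3 of the 851 human microRNA names on the array. miR-155 was detected on all 12 arrays and miR-146a on 8, while miR-146b-5p was detected on none. The other arms of the same hairpins, miR-155*, miR-146a* and miR-146b-3p, were not detected on any of the 12 arrays either.

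The samples came from SUM159, a triple-negative human breast cancer cell line, infected with a stable lentiviral vector for 1 of 2 shRNAs. The groups were Dicer shRNA with metformin, control shRNA with metformin, Dicer shRNA with vehicle and control shRNA with vehicle, with 3 biological replicates each. Metformin was given at 0.5 mM for 24 h, vehicle was PBS, the control shRNA was a scrambled sequence in the same vector backbone, and all cells grew in medium with serum, insulin and hydrocortisone. Total RNA was read on 1-colour Agilent microRNA arrays, and each line stands for 1 shRNA in 1 cell line. The 6 metformin arrays shared slide 2 and the 6 vehicle arrays slide 1, which means that an effect of metformin and one of the slide cannot be told apart, whereas both lines were present on each slide. Within a slide the Dicer shRNA arrays followed those of control shRNA in position, and line and position cannot be told apart. The arrays have no probe for the Dicer mRNA, and the knockdown itself was not checked here.

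MicroRNAs are cut by Dicer from short hairpin precursors, and base pairing through their seed then lowers the output of target mRNAs. miR-155 comes from the non-coding transcript MIR155HG and is known for promoting inflammatory signalling in immune cells and as an oncogenic microRNA in lymphoma and breast cancer. miR-146a and miR-146b are known as brakes on the same pathway, because they repress the adaptor mRNAs TRAF6 and IRAK1, which carry toll-like and interleukin-1 receptor signals to NF-kB.

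The mature sequences are shown because they separate the 3 microRNAs into 2 seed groups. Sequences and positions are from RefSeq (GRCh38.p14, plus strand), matched by name for 3 of 3, and capitals mark the seed, bases 2 to 8 from the 5′ end.
miR-155: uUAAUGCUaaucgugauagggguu
miR-146a: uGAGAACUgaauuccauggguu
miR-146b-5p: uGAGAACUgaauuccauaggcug
miR-155 lies at chr21:25573983-25574006, within the span of the non-coding gene MIR155HG (chr21:25562145-25575168). miR-146a lies at chr5:160485372-160485393, within the span of the non-coding gene MIR3142HG (chr5:160468251-160487426). miR-146b-5p lies at chr10:102436520-102436542, outside the span of any other listed gene. NFKB2, which encodes the p100 subunit of NF-kB, ends 33983 bases upstream of MIR146B on the same chromosome, with 3 listed genes between them. miR-155 was the only human mature entry with its seed. miR-146a and miR-146b-5p shared theirs with 1 further entry, miR-7153-5p, and were identical at 20 of the 22 positions compared. Counted from 1 at the 5′ end of miR-146a, they differ by G18A and U21C, so both differences lie outside the seed.

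The promoter windows of both host transcripts, 300 bases that reach from upstream to just past the annotated start, are shown because they hold different inflammatory motifs. The search covered both strands for the NF-kB consensus of 10 bases and for the AP-1 motif TGANTCA, and capitals mark the matches. AP-1 is another stress-activated transcription factor.
MIR3142HG: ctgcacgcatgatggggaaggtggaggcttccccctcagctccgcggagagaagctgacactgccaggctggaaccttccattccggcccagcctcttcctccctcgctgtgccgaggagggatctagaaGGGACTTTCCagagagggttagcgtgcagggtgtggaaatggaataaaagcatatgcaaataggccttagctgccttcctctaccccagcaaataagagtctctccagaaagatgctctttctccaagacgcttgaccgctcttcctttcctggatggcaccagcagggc
MIR155HG: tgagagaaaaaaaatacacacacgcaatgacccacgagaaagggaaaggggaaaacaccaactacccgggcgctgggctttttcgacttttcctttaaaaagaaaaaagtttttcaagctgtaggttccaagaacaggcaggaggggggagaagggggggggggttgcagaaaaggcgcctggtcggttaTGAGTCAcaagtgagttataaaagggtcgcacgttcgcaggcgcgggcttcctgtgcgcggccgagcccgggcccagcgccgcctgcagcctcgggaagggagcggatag
The MIR3142HG window (chr5:160468001-160468300) held 1 NF-kB match, which begins 120 bases before the start, and 0 AP-1 matches. The MIR155HG window (chr21:25561895-25562194) held 1 AP-1 match, 60 bases before the start, and 0 NF-kB matches. Sites outside the windows were not searched, so a count of 0 holds for the window alone. Of 35116 promoter windows of this length, 11.3% held the NF-kB motif and 7.71% the AP-1 motif, and the motifs do not overlap in these windows.

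Signals are given as the array's total gene signal divided by a factor per array, which brings the 75th percentile of the 98 human microRNAs detected on all 12 arrays to a common value. Undetected values, and detected ones that lay lower, were set to a floor of 3.01, or 1.59 on the log2 scale. The arrays detected 130 to 204 human microRNAs, and 208 microRNAs detected on every array of at least 1 group were tested, among them miR-155 and miR-146a. Group differences are log2 differences ± SE from limma over 4 groups of 3 arrays, and adjusted p-values are Benjamini-Hochberg over the 208. The labels call the replicates biological and do not say whether they came from separate cultures, so p-values measure the spread between these samples. The stated signal error was 8.27% to 16.5% of the signal for miR-155 and 8.93% to 32.3% for miR-146a where detected.

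miR-155 kept a dim signal in a narrow range. Its scaled signal was 21.4, 22.3 and 20.9 in Dicer shRNA cells with metformin (mean 21.5 ± 0.702, SD, n = 3) and 45.2, 40.1 and 42.2 in control shRNA cells with metformin (mean 42.5 ± 2.59, SD, n = 3). It was 22.1, 26.6 and 21.4 in Dicer shRNA cells with vehicle (mean 23.4 ± 2.80, SD, n = 3) and 37.0, 32.6 and 33.2 in control shRNA cells with vehicle (mean 34.3 ± 2.37, SD, n = 3). All 6 Dicer shRNA arrays lay below all 6 control shRNA arrays. From low to high the group means ran Dicer shRNA with metformin, Dicer shRNA with vehicle, control shRNA with vehicle and control shRNA with metformin, and the arrays of the 2 lowest groups overlapped.

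miR-146a spanned a far wider range. Its scaled signal was 5.73 and 7.27 on 2 arrays of Dicer shRNA cells with metformin and not detected on the other one, and it was not detected on any of the 3 arrays of control shRNA cells with metformin. It was 15.6, 21.8 and 25.6 in Dicer shRNA cells with vehicle (mean 21.0 ± 5.07, SD, n = 3) and 133, 127 and 153 in control shRNA cells with vehicle (mean 138 ± 13.5, SD, n = 3). The vehicle groups did not overlap with each other or with any metformin array. The order was control shRNA with metformin, Dicer shRNA with metformin, Dicer shRNA with vehicle and control shRNA with vehicle, and the 2 lowest groups shared arrays at the floor.

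**Figure D1:**
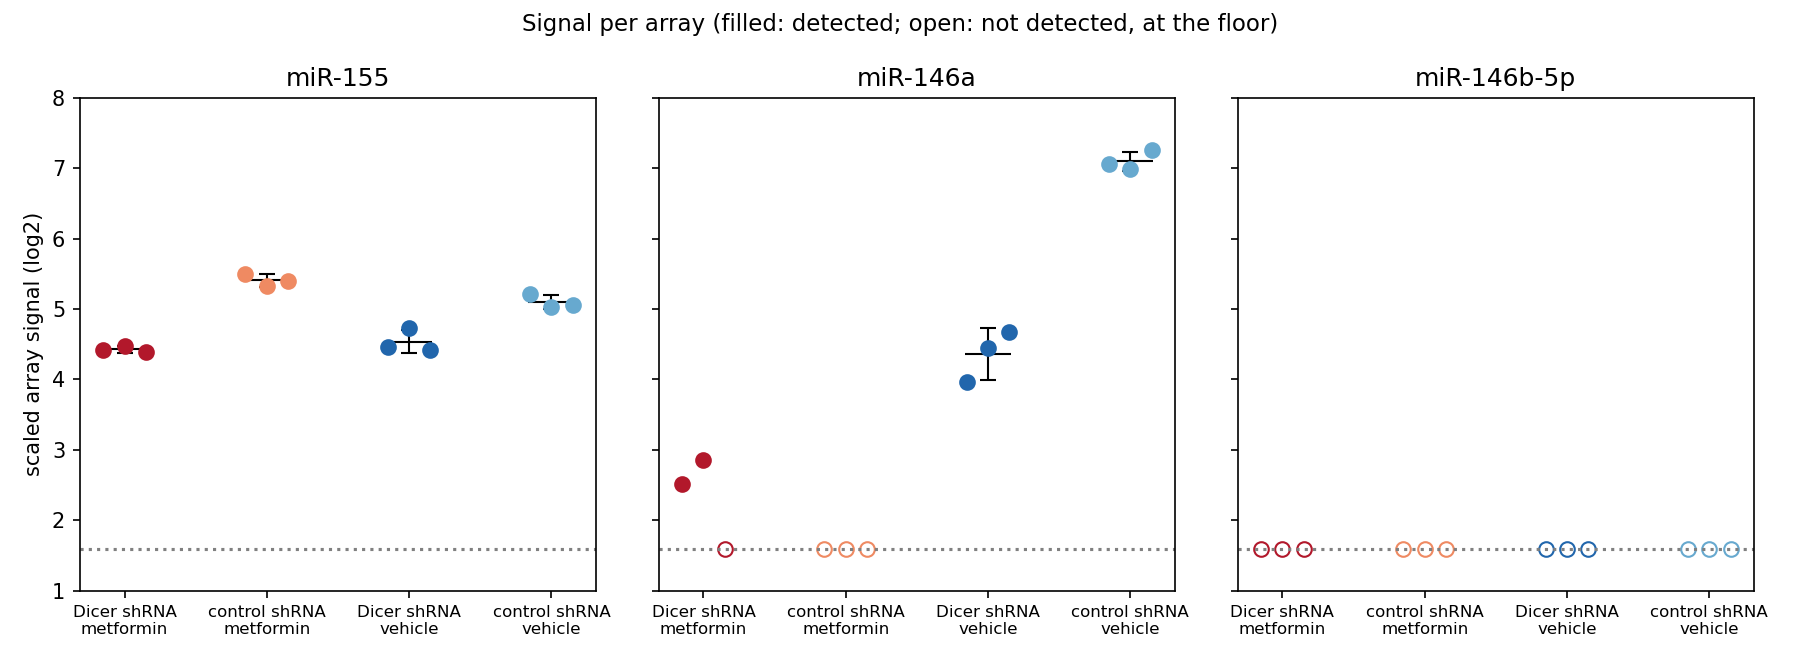
Scaled array signal (log2) of miR-155, miR-146a and miR-146b-5p on each of the 12 arrays, by group. Filled points were detected, open points were not and sit at the floor (dotted line), and lines with bars show mean ± SD where all 3 arrays of a group detected the microRNA; miR-155 separates the lines on both slides, while miR-146a is highest in control shRNA cells with vehicle.

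The knockdown with vehicle went with lower signals of both detected members. miR-155 was lower in Dicer shRNA cells by a log2 difference of -0.56 ± 0.10 (1.47-fold, adjusted p = 0.000931, limma), with no overlap between the groups. miR-146a was lower by -2.74 ± 0.29 (6.67-fold, adjusted p = 2.69e-05, limma), again with no overlap. The arrays read whole cultures, so fewer cells with a microRNA and less of it per cell cannot be told apart. In this comparison 59.6% of the 208 tested microRNAs passed and 38% were lower, so 2 of 2 tested members among the lower ones is to be read against that share. Non-overlapping groups were found for 63%. The median over all 208 was 0, the value of microRNAs at the floor in both groups. Over the microRNAs detected on all arrays, as miR-155 was, the median was 0.33. Among the 208, miR-155 was the 76th from the lowest and miR-146a the 14th. Under the 6 scalings of the arrays tried, miR-155 stayed below 0 (-1.43 to -0.27) and passed under 5, the exception being quantile normalization (adjusted p = 0.085, limma). miR-146a passed under all 6 (-3.61 to -2.43).

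With metformin the members parted. miR-155 was again lower in Dicer shRNA cells, by -0.98 ± 0.10 (1.97-fold, adjusted p = 3.53e-05, limma), and the groups did not overlap. miR-146a, detected on 2 of 3 Dicer shRNA arrays and on 0 of 3 control shRNA arrays, had a difference of 0.73 ± 0.29 that the floor limits and that did not pass (95% interval 0.09 to 1.38, adjusted p = 0.0694, limma). Here 38.9% of the tested microRNAs passed, 25% lower and 13.9% higher, and the groups did not overlap for 53.8%. The median over all was -0.24, and -0.33 over those detected on all arrays. miR-155 was below 0 under each of the 6 scalings (-1.49 to -0.44) and missed the threshold when the arrays were scaled to viral names (adjusted p = 0.0851, limma). miR-146a was above 0 under each (0.47 to 2.01) and passed with the series matrix alone among the 6, where undetected values are listed at 0 (adjusted p = 0.0436, limma). It also passed without replicate 3 of Dicer shRNA with metformin, the array that did not detect it (1.10, adjusted p = 0.00189), and without replicate 1 of Dicer shRNA with vehicle, which is not in this comparison (0.73, adjusted p = 0.0488).

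Averaged over both slides, miR-155 was lower in Dicer shRNA cells by -0.77 on the log2 scale. An exact two-sided permutation of the line labels within each slide gave p = 0.005 over 400 regroupings, the smallest they can give, and each of the 6 Dicer shRNA arrays lay below each control shRNA array of its slide. For miR-146a the average was -1.002 with an exact permutation p of 0.1, and its values on the 2 slides have opposite signs. limma gave an adjusted p of 1.31e-05 for miR-155 and 0.00236 for miR-146a. Of the 208 tested microRNAs, 5 (2.4%), miR-155 included, were called lower on both slides, which is 6.33% of the 79 lower ones with vehicle and 9.62% of the 52 lower ones with metformin. The others, named after their values were seen, were miR-205 (-2.33 with vehicle, -0.43 with metformin), miR-720 (-1.16 and -0.67), miR-1260 (-0.76 and -0.54) and miR-1274b (-0.62 and -0.95). miR-720 and miR-1274b are entries that were later reported to be tRNA fragments. A larger set of 24 was lower with vehicle and higher with metformin.

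**Figure D2:**
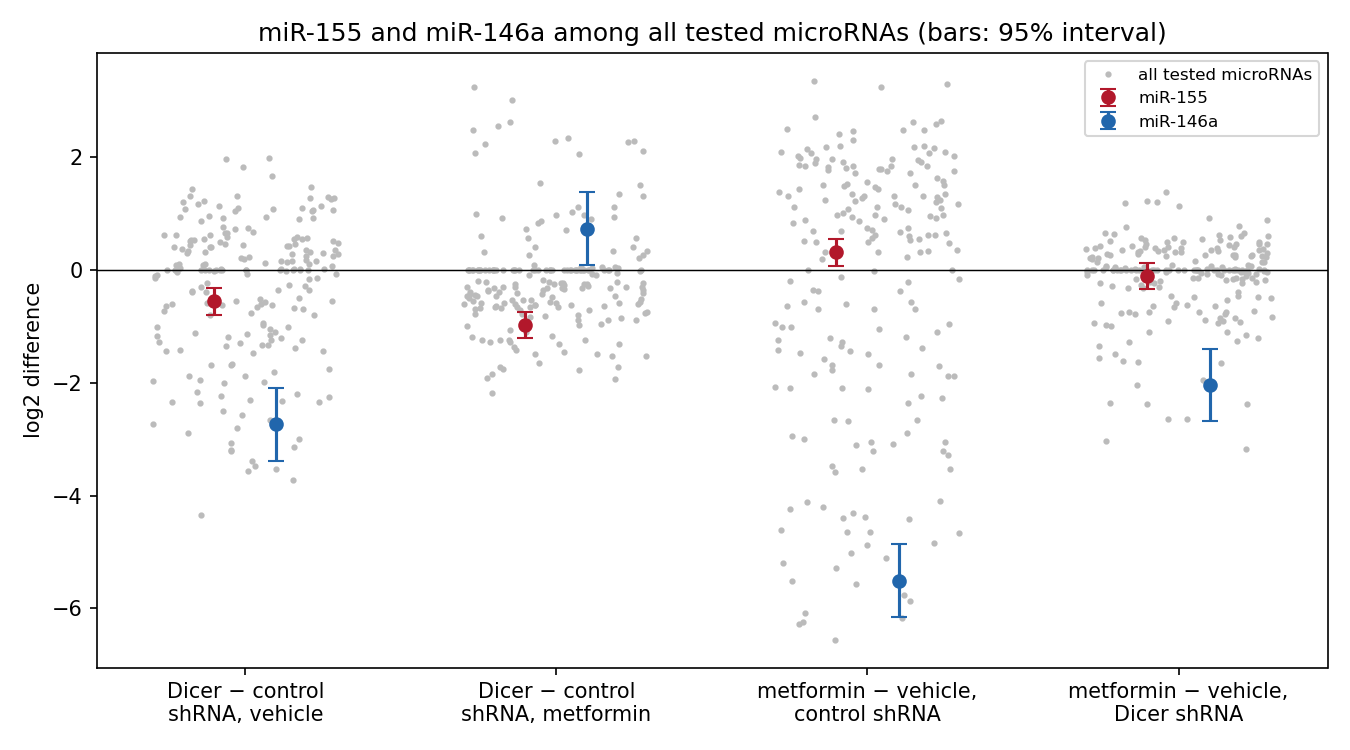
Log2 differences of miR-155 (red) and miR-146a (blue) with 95% intervals from limma, over the 208 tested microRNAs (grey), in 4 comparisons; the columns for metformin share arrays with the knockdown columns. miR-155 stays within 1 log2 unit of 0 in each comparison, while miR-146a reaches -5.51 in control shRNA cells, where it is limited by the floor.

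Metformin arrays of control shRNA cells gave the largest difference between the members. With the scaling and floor used, miR-146a was at least 45.6-fold lower with metformin than with vehicle (adjusted p = 3.09e-08, limma), a bound because none of the 3 metformin arrays detected it. Its log2 difference ran from -7.10 to -4.87 over the 6 scalings, and from -7.10 to -3.25 over 13 alternatives of the processing. miR-155 was higher by 0.31 ± 0.10 (1.24-fold, adjusted p = 0.0167, limma), but this direction depends on the scaling: the difference was -0.060 without scaling and -1.34 when scaled to viral names (adjusted p = 3.56e-05, limma), against 1.35 after quantile normalization. The unscaled array signal of miR-155 was 37.9 ± 3.15 with metformin and 39.5 ± 2.03 with vehicle (SD, n = 3 each). The median over the 208 was 0.52, -0.99 when scaled to viral names and 0.60 after quantile normalization. Relative to that median miR-155 stood at -0.21, and at -0.36 when scaled to viral names and 0.75 after quantile normalization. With the scaling used, the median over the microRNAs detected on all arrays was 0.93, further above the 0.31 of miR-155. In this comparison 88% of the tested microRNAs passed, 47.6% higher and 40.4% lower, with groups that did not overlap for 91.8%, and it shares the control shRNA vehicle arrays with the first knockdown comparison.

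In Dicer shRNA cells the contrast between the members was smaller. miR-146a was lower with metformin by -2.04 ± 0.29 (4.11-fold, adjusted p = 0.000721, limma), a value limited by the 1 array at the floor, and the groups did not overlap. An offset of 16, used instead of the floor, gave -0.87, and with the other groups left out of the fit it missed the threshold (adjusted p = 0.0503). miR-155 differed by -0.11 ± 0.10 and did not pass (95% interval -0.34 to 0.12, adjusted p = 0.513, limma), and the groups overlapped. Here 24.5% of the tested microRNAs passed, 6.25% higher and 18.3% lower, and the groups did not overlap for 37%. The difference between the knockdown changes on the 2 slides was -0.42 ± 0.15 for miR-155 (adjusted p = 0.0238, limma) and 3.47 ± 0.41 for miR-146a (adjusted p = 3.93e-05, limma), and 76.4% of the tested microRNAs passed this interaction, 37% above and 39.4% below 0. Its median over all 208 was -0.53, so miR-155 stood 0.10 above that median. Over the microRNAs detected on all arrays the median was -0.68. The interaction of miR-155 turned to 0.99 when scaled to viral names, and that of miR-146a stayed above 0 under each scaling.

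A measure that does not depend on the scaling gave the same separation of the lines for miR-155. Among the 98 microRNAs detected on all arrays, ranked from the brightest, it held ranks 71 to 80 in Dicer shRNA cells with metformin and 46 to 48 in control shRNA cells with metformin. With vehicle its ranks were 66 to 83 in Dicer shRNA cells and 49 to 52 in control shRNA cells. The lines did not overlap on either slide, and the metformin and vehicle ranks of control shRNA cells lay next to each other. A rank also depends on the other microRNAs ranked. Over the 98 the median knockdown difference was 0.33 with vehicle and -0.33 with metformin. Quantile normalization, which also rests on ranks, gave miR-155 -0.27 with vehicle, not called, and -1.49 with metformin.

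The log2 signal of miR-155 minus that of miR-146a on the same array is also free of the scaling where both were detected. Where miR-146a was not detected, it was set to the floor or to the array's lowest detected signal, whichever was higher, which gives a lower bound. The difference was 1.90, 1.62 and at least 2.80 in Dicer shRNA cells with metformin, and at least 3.91, 3.73 and 3.81 in control shRNA cells with metformin. It was 0.50, 0.29 and -0.26 in Dicer shRNA cells with vehicle and -1.85, -1.96 and -2.20 in control shRNA cells with vehicle. With vehicle the difference was therefore larger in Dicer shRNA cells on each array. With metformin the control shRNA bounds lay above both measured Dicer shRNA values, and the third Dicer shRNA array has no upper limit. These values compare changes between arrays, not the amounts of the 2 microRNAs.

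**Figure D3:**
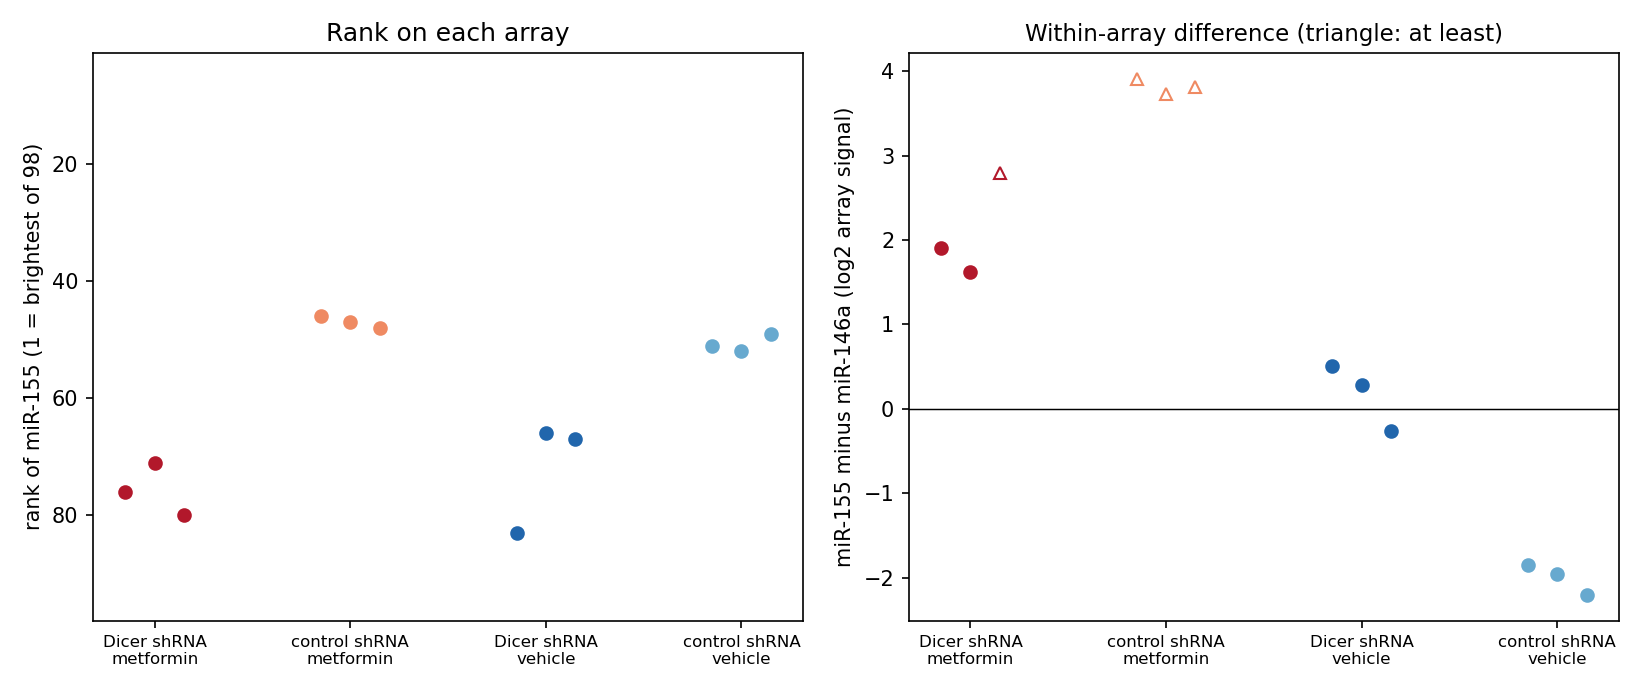
Left, the rank of miR-155 among the 98 microRNAs detected on all arrays (1 is the brightest), for each array; the Dicer shRNA arrays lie at 66 to 83 and the control shRNA arrays at 46 to 52. Right, log2 array signal of miR-155 minus miR-146a on each array, with open triangles as lower bounds where miR-146a was not detected; the values run from -2.20 in control shRNA cells with vehicle to at least 3.91 in control shRNA cells with metformin.

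Control features of the arrays moved in parallel with miR-146a. The median change of 4 control features named hur was -0.81 for the knockdown with vehicle, 1.95 for the knockdown with metformin, -3.84 for metformin in control shRNA cells and -0.999 for metformin in Dicer shRNA cells, with all 4 on the same side of 0 each time. The 10 viral names detected on all arrays moved the other way, with medians of 0.87, -0.49, 1.38 and 0.34 in the same order. Their part in the miR-146a and miR-155 results was not tested. For miR-155, the hur features had the same sign in the knockdown with vehicle and the opposite sign in the knockdown with metformin. The viral names had the opposite sign in the knockdown with vehicle. In the knockdown with metformin they had the same sign as miR-155, with 9 of 10 lower. Among markers of other cell types, 2 of 7 blood cell microRNAs, miR-223 and miR-486-5p, were detected, each on the 3 arrays of control shRNA cells with metformin alone (summed scaled signal 15.2 to 20.4, and 0 on all other arrays). miR-142-3p, miR-142-5p, miR-144, miR-150 and miR-451 were not detected on any array. Of 6 epithelial microRNAs only miR-205, a microRNA of basal epithelium, was detected, with a scaled signal of 76.8 to 105 in Dicer shRNA cells with metformin, 106 to 134 in control shRNA cells with metformin, 123 to 129 in Dicer shRNA cells with vehicle and 620 to 645 in control shRNA cells with vehicle. miR-141, miR-200a, miR-200b, miR-200c and miR-429 were not detected on any array, and the part of these markers in the results was not tested.

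Other microRNAs known to be induced by NF-kB or by toll-like receptor signals were listed for comparison. The list was chosen with earlier results of these data known, so its counts describe these arrays and are no independent test. Of 18 such names on the array 10 were tested, and miR-9, miR-9*, miR-132, miR-147, miR-147b, miR-187, miR-212 and miR-301a were not detected on any. In the knockdown with vehicle 9 of the 10 were lower and 0 higher, with a median of -1.38, beside 38% lower, 21.6% higher and a median of 0 over all 208, and 6 were lower after quantile normalization. miR-21, an abundant oncogenic microRNA, fell by 2.50 ± 0.27, and miR-27b, miR-23b and miR-24, which share a cluster, fell by 2.32 ± 0.25, 2.16 ± 0.38 and 1.95 ± 0.25. miR-155 and miR-146a had the direction of these 9.

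In the knockdown with metformin 5 of the 10 were higher and 0 lower (median 1.54), beside 13.9% higher, 25% lower and a median of -0.24 over all 208, whereas miR-155 was lower. Scaled to the median, miR-365, named after its values were seen, was lower as well (-0.71, adjusted p = 0.00154, limma). miR-125b, which also acts on inflammatory cytokine mRNAs, rose by 3.01 ± 0.34, though only 1 of 3 control shRNA arrays detected it. miR-221 rose by 2.33 ± 0.30, miR-21 by 2.12 ± 0.27 and miR-24 by 2.07 ± 0.25. The remaining one, also named after its values were seen, was miR-222, the cluster partner of miR-221 (2.05 ± 0.13). Names outside the list rose too, among them miR-29a (3.25 ± 0.18) and miR-100 (2.55 ± 0.27), likewise named after their values were seen. Only 1 of 3 control shRNA arrays detected miR-29a.

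With metformin in control shRNA cells 8 of the 10 were lower and 0 higher (median -4.74), beside 40.4% lower, 47.6% higher and a median of 0.52 over all 208. After quantile normalization 1 was higher here, and 1 higher and 5 lower in Dicer shRNA cells. miR-125b fell by 6.24 ± 0.34, with 1 of 3 metformin arrays above the floor, and miR-21 fell by 5.76 ± 0.27. miR-23b was at least 47.4-fold lower and miR-27b at least 39.1-fold. In Dicer shRNA cells 7 of the 10 were lower and 0 higher (median -1.05), beside 18.3% lower, 6.25% higher and a median of 0 over all 208, among them miR-27b (-2.64 ± 0.25), miR-23b (-2.37 ± 0.38), miR-125b (-1.95 ± 0.34) and miR-21 (-1.15 ± 0.27). The floor limits the first 2 of these, detected on 1 and 2 of 3 metformin arrays. Over 5 scalings the medians of the list ran from -2.21 to -0.74, 1.21 to 1.74, -6.00 to -4.36 and -1.29 to -0.79 in the 4 comparisons, so none changed sign.

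**Figure D4:**
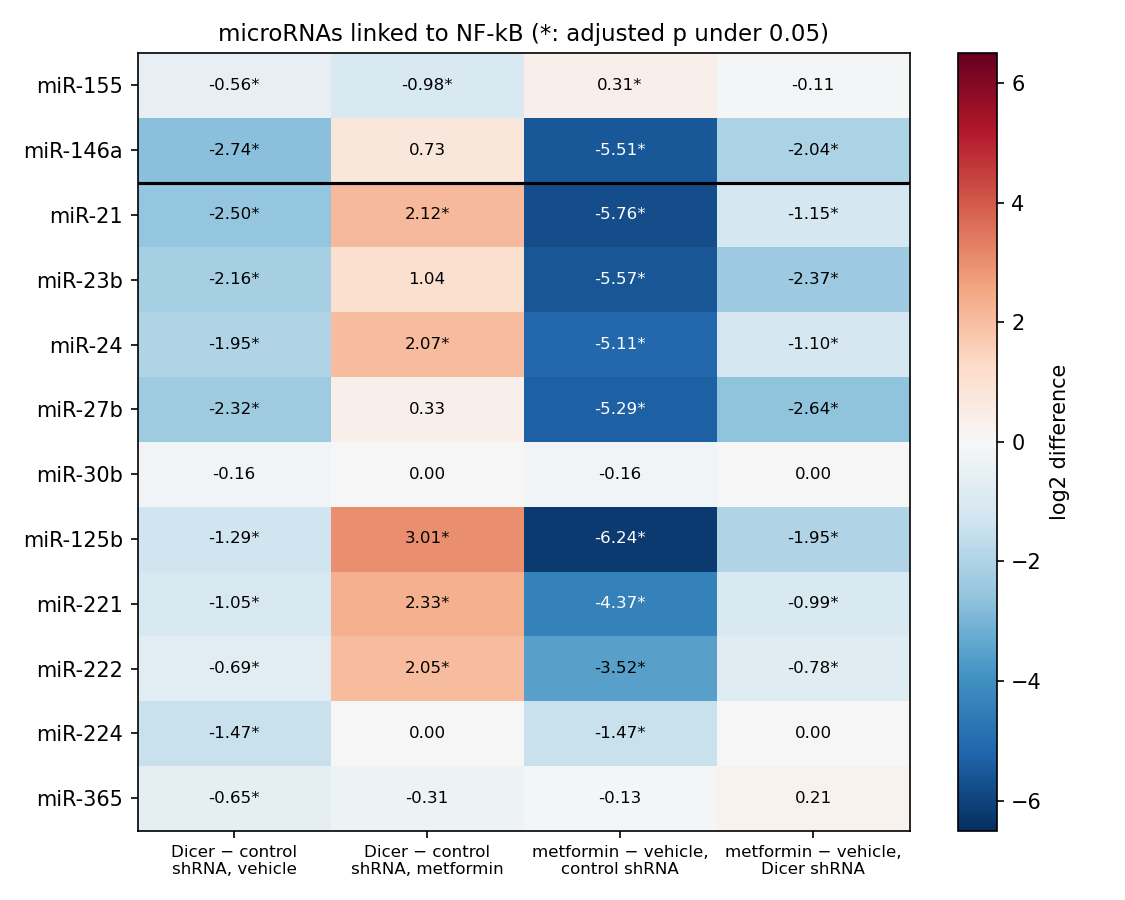
Log2 differences in 4 comparisons for miR-155 and miR-146a (above the line) and the 10 tested microRNAs of the NF-kB-induced list, with an asterisk for an adjusted p under 0.05 in limma. miR-146a has the signs of miR-21, miR-23b, miR-24, miR-27b, miR-125b, miR-221 and miR-222 in each column. In the second column miR-146a, miR-23b and miR-27b did not pass and were at the floor in control shRNA cells. There miR-155 is lower, while 5 of the 10 are higher.

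Patterns over the 12 arrays were compared by the root mean square difference of log2 signals after centring each microRNA on its own mean. The 5 microRNAs nearest to miR-155 were miR-720 (0.27), miR-30c-1* (0.29), miR-365 (0.31), miR-574-3p (0.31) and miR-149* (0.32), against a median of 0.75 over all tested. miR-365 is also one of the 10 tested NF-kB-induced microRNAs, and miR-30c-1* and miR-149* were detected on 5 arrays each, so their patterns are largely set by the floor. The profile of miR-155 itself had a root mean square size of 0.41, so a flat profile would lie 0.41 from it. In the knockdown with vehicle, where miR-155 changed by -0.56, miR-720 changed by -1.16 and miR-365 by -0.65. There miR-574-3p changed by -0.07, and miR-30c-1* and miR-149* by 0. The 5 nearest to miR-146a were miR-27b (0.30), miR-23b (0.32), miR-93 (0.40), miR-26a (0.41) and let-7c (0.42), against a median of 2.34 over all tested and a size of 2.16 for miR-146a. These 5 were detected on 6 to 9 arrays and shared the floor with miR-146a on the metformin arrays of control shRNA cells.

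**Figure D5:**
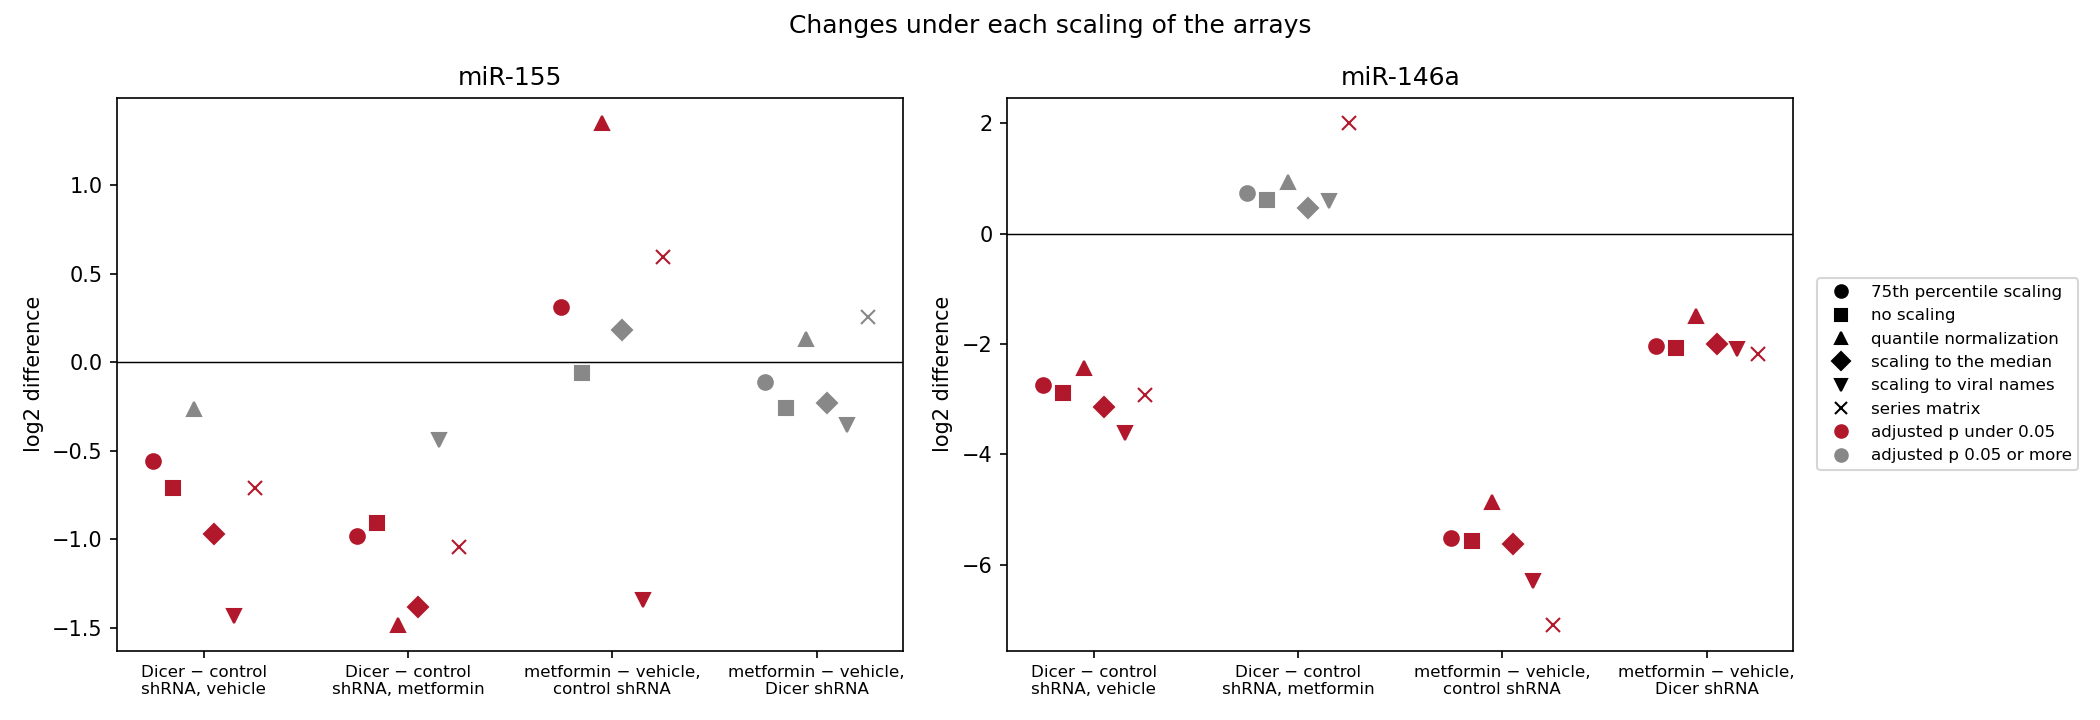
Log2 differences of miR-155 (left) and miR-146a (right) in 4 comparisons under 6 scalings of the same arrays, with red for an adjusted p under 0.05 in limma and grey otherwise. The knockdown differences of miR-155 stay below 0, its difference for metformin in control shRNA cells runs from -1.34 to 1.35, and each difference of miR-146a keeps its sign.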

How the data were processed

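The deposited array files give each name a linear intensity, the total gene signal, together with a stated error and a flag for detection, per the file headers. The submitters' processing notes list Agilent Feature Extraction 9.1. Undetected names hold 0.1 in these files. The authors' deposited series matrix gives log2 values for 221 microRNAs, with 0 for undetected ones; how it was normalized and centred is not given in the sources used here. Per the labels, RNA was labelled with Cy3 by a protocol written for an mRNA kit. Groups follow the sample titles, with which some source names of metformin samples conflict.

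Each array was scaled to the 75th percentile over 98 human microRNAs (factors 0.869 to 1.20), given a floor (each array's 5th percentile among detected signals, then the median of these), and log2 was taken. limma 3.58.1 (lmFit, eBayes, R 4.3.3) fitted 4 group means over 208 microRNAs, with 8 residual and 1.85 prior degrees of freedom, and a call is an adjusted p under 0.05. A group at the floor has no spread of its own, so errors there are understated. Bounds set an undetected array to its lowest detected signal, or to the floor if that is higher. They hold for the scaling and floor used. The number of arrays limits the precision. The fit was tested on simulated data without a floor, so that test does not cover groups at the floor. Sequences, motifs and figures used Python 3.11.15, pandas 2.3.3 and matplotlib 3.10.9.

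The members and lists were chosen with earlier results of these data known. Named are the members, the other arms of their hairpins, up to 4 members of a list per comparison, by size of change, and the 5 nearest patterns; any further name is said to be chosen after its values were seen. Alternatives covered scaling, floor, filter, spread, replicate block and leaving out each array.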

Additional observations from a re-analysis of the deposited data

Results flagged for a closer look

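With the scaling used, the knockdown change differed between the slides by a test of the difference itself for both detected members, but for miR-155 this depends on the processing. For miR-155 the change with metformin minus that with vehicle was -0.42 ± 0.15 (adjusted p = 0.0238, limma, 3 arrays per group), both changes being below 0. It lay 0.10 above the median over all 208, and the median over the microRNAs detected on all arrays was -0.68. Of 13 alternatives, 6 kept the direction and call of miR-155. Among those that did not, it was -0.20 without scaling and -0.33 with the series matrix, neither called, and 0.99 scaled to viral names. For miR-146a, which kept direction and call in all 12 alternatives that gave a value, it was 3.47 ± 0.41 (adjusted p = 3.93e-05, limma), with the control shRNA arrays with metformin at the floor. Slide and metformin cannot be told apart in either value.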

How the results depend on the processing

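Across scaling, floor, filter, spread and fit, both knockdown differences of miR-155 stayed below 0, and those of miR-146a with vehicle and with metformin in control shRNA cells kept their sign and their call under each alternative that gave a value. miR-155 was not called for the knockdown with vehicle after quantile normalization (-0.27), nor for the knockdown with metformin scaled to viral names (-0.44). Its change with metformin in control shRNA cells was -0.060 without scaling (adjusted p = 0.625, limma), 0.18 scaled to the median (0.215) and -1.34 scaled to viral names. The 75th percentile over all human names, which is the undetected value on every array, gave the unscaled -0.060 again. In Dicer shRNA cells it was 0.13 after quantile normalization and 0.26 with the series matrix, neither called. The interaction of miR-155 was not called without scaling or with that percentile (-0.20 both), scaled to the median (-0.41), with the series matrix (-0.33), or with all human names tested or only those detected on all arrays (-0.42 both), and turned to 0.99 scaled to viral names (adjusted p = 0.00416, limma). The knockdown difference of miR-146a with metformin was called with the series matrix (2.01) and with array weights (0.98, adjusted p = 0.00102, limma). Its change with metformin in Dicer shRNA cells, -2.04, was not called when only the groups compared were fitted. The exact permutation p of the averaged knockdown was at most 0.015 for miR-155 (-1.18 to -0.50) and at least 0.1 for miR-146a (-1.51 to -0.46) over 8 alternatives.

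For the knockdown with metformin the count of calls was 129 scaled to the median (23 higher, 106 lower), 51 scaled to viral names (36 higher, 15 lower) and 126 with array weights (36 higher, 90 lower), beside 81. For metformin in Dicer shRNA cells it was 24 with all human names tested, 82 with array weights and 19 with only the groups compared, beside 51. With only the 98 microRNAs detected on all arrays, which leaves fewer to test and no value for miR-146a, the counts were 64 and 44 for the knockdown with vehicle and with metformin, 86 and 28 for metformin in control and in Dicer shRNA cells, and 72 for the interaction. The cause of the other shifts was not tested.

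Leaving out 1 array at a time, miR-155 ran from 0.27 to 0.37 for metformin in control shRNA cells (not called without replicate 1 of control shRNA with metformin, adjusted p = 0.0521, limma) and from -0.48 to -0.33 for the interaction (not called without replicate 2 of Dicer shRNA with vehicle, adjusted p = 0.0542, limma). The knockdown difference of miR-146a with metformin ran from 0.46 to 1.10. The count for metformin in Dicer shRNA cells ran from 32, without replicate 3 of Dicer shRNA with metformin, to 71. With the replicate block the differences were the same (-0.56 for miR-155 in the knockdown with vehicle) and no call of either member changed; counts ran from 47 to 182. Whether the replicate numbers pair the arrays cannot be told from these values. Same-numbered arrays correlated at -0.27 to 0.69 over 18 pairs, 9 of them over 0.1, and 6 of 12 arrays correlated best with their own number. miR-146b-5p, undetected, gave no value under any alternative.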

Other observations

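MicroRNAs reported to target mRNAs of the NF-kB pathway were listed as the counterpart of those it induces. Of 12 names 7 were tested, and miR-126, miR-138, miR-199b-5p, miR-373 and miR-520c-3p were not detected on any array. In the knockdown with vehicle 2 were higher and 3 lower (median 0), beside 21.6% higher, 38% lower and a median of 0 over all 208. miR-16 was at least 4.71-fold lower and its cluster partner miR-15a at least 2.47-fold lower. miR-199a-5p, which targets the kinase IKK-beta, fell by 1.97 ± 0.24, while miR-520e, detected on 2 of 3 control shRNA arrays, rose by 1.99 ± 0.31. In the knockdown with metformin 2 were higher and 1 lower, beside 13.9% higher and 25% lower over all 208. miR-181b, which acts on nuclear import of NF-kB, rose by 1.11 ± 0.14, miR-199a-5p, detected on 2 of 3 Dicer shRNA arrays and on 0 of 3 control shRNA arrays, had a difference of 0.71 ± 0.24 that the floor limits (adjusted p = 0.0416, limma), and miR-223 was at least 2.44-fold lower. miR-199a-5p did not pass there after quantile normalization (adjusted p = 0.0554, limma), scaled to the median (0.106) or scaled to viral names (0.139).

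With metformin in control shRNA cells 3 of the 7 were higher and 4 lower (median -1.41), beside 47.6% higher, 40.4% lower and a median of 0.52 over all 208. Scaled to viral names, 1 was higher and 5 lower. miR-199a-5p was at least 18.9-fold lower, and miR-181b fell by 1.68 ± 0.14. miR-16, above the floor on 1 metformin array, had a change of -1.77 ± 0.38, and miR-520e rose by 1.91 ± 0.31, or 0.60 scaled to viral names, which did not pass (adjusted p = 0.175, limma). In Dicer shRNA cells 0 of the 7 were higher and 2 lower, beside 6.25% higher and 18.3% lower over all 208. They were miR-199a-5p (-1.56 ± 0.24, limited by the floor) and miR-181b (-0.58 ± 0.14, adjusted p = 0.181 after quantile normalization, limma).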
